A study of Mus musculus with 10 samples.

Results

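Adipose progenitor markers are described here across 10 RNA sequencing libraries of subcutaneous (inguinal) white fat, 5 from Ad-GHRKO mice and 5 from Flox mice. The members are the 10 genes Pdgfra, Cd34, Ly6a, Dpp4, Pi16, Cd55, Icam1, F3, Dlk1 and Fbn1, found by gene name among 31285 genes of the deposited table, with 1 row for each. In Ad-GHRKO mice the growth hormone receptor was knocked out in adipose tissue, per the series' title, although the genotype label of these libraries reads GHR Knockdown. Flox is the comparison genotype, with no other allele named. Mice of both genotypes were kept on regular chow to 20 months of age. The Cre driver, and whether it acts in progenitors as well as in adipocytes, is not given in the sources used here. Nothing in the labels states that each library came from a separate animal, so p-values measure the spread between these libraries, which may be technical.

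Fat cells are replaced throughout life from stromal progenitors that lie around vessels and in the connective tissue septa of the depot. These cells carry PDGFRα, CD34 and, in the mouse, SCA1, the product of Ly6a. In mouse subcutaneous fat, early progenitors in the septa are marked by Dpp4, Pi16 and Cd55, and they give rise to more committed preadipocytes marked by Icam1 and to cells marked by F3, also called CD142. Growth hormone is known to act on fat partly through its precursor cells. In RNA from whole tissue, fewer cells of a type and less RNA per cell cannot be told apart.

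Levels are in FPKM, fragments per kilobase of transcript scaled to each library's total, so levels of different genes can be set side by side per length. Whole reads recovered from these values came to 14.6 to 19.2 M (mega) reads per library. Ghr, the targeted gene, was at 12.99 to 20.1 FPKM in the Ad-GHRKO libraries and 72.9 to 129.8 FPKM in the Flox libraries (log2 change -2.41, SE 0.17, limma adjusted p = 6.5e-05). This level is for the gene as a whole, and which exons were deleted is not given. Adipocyte markers were high in every library, with 6 genes summing to 2321 to 6817 FPKM in Ad-GHRKO and 4402 to 8050 FPKM in Flox. Skeletal muscle transcripts set 3 libraries apart. The 6 muscle markers summed to 46769 FPKM in Ad-GHRKO 1, 26305 FPKM in Flox 5 and 17680 FPKM in Flox 3, against 4.90 to 670 FPKM in the other libraries, 670 FPKM being Ad-GHRKO 5. FPKM is relative to the library total, so these transcripts lower every other value in those 3 libraries. Mesothelial markers, 4 genes, summed to at most 1.23 FPKM in Ad-GHRKO and 1.36 FPKM in Flox.

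No progenitor marker passed the test between the genotypes. Of the 10 genes, 9 reached the filter of 1 FPKM in at least 5 libraries, and 0 of these 9 passed an adjusted p of 0.05 in limma on log2(FPKM + 1), two-sided, where 280 of 12785 genes passed (2.19%). At an unadjusted p of 0.05, 0 of the 9 passed, where 16.4% of all genes did, and limma voom on the recovered reads gave 1 of 9, Icam1 (unadjusted p = 0.037, adjusted p = 0.22), where it gave 2489 of 12698 genes. The other alternatives gave 0 to 3 of the 9 at that unadjusted p. There were 3 without Ad-GHRKO 1, where 3648 of 12683 genes passed, and 2 with TPM scaling, where 2446 of 12785 did. There were also 2 without Flox 1, where 1855 of 12610 genes passed, and 2 without Flox 4, where 1799 of 12618 did. For none of the 9 did the libraries of one genotype lie apart from those of the other, which 4.97% of all genes did. The log2 change was above 0 for 8 of the 9 and below 0 for Ly6a, with a median of 0.31, against a median of 0.04 over all genes tested and 55.7% of genes above 0. The signs were the same under TPM, median ratio and quantile scaling, but those of Cd34, Pi16 and Ly6a turned when 1 library was left out. None of the 9 passed an adjusted p of 0.05 by limma voom, where 3.42% of genes did, without Ad-GHRKO 1, where 9.32% did (1182 genes), or without the 3 muscle-rich libraries, where 6.06% did. Of the 280 genes, 99 were higher (0.774% of those tested) and 181 lower (1.42%), but 141 were higher and 93 lower after rescaling each library to TPM, in which every library has the same sum of values per length, which moved the median log2 change of all genes to 0.15.

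**Figure D1:**
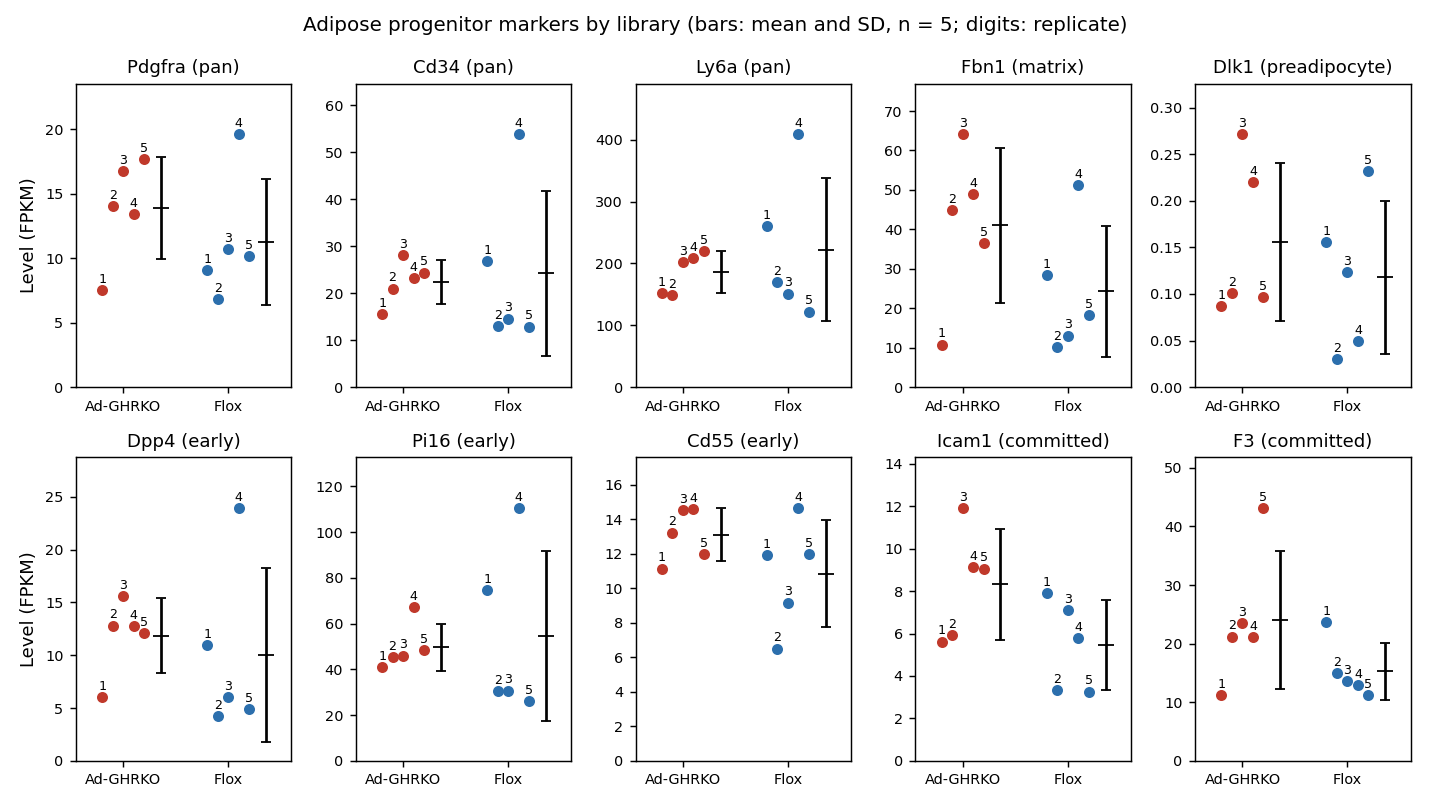
Level in FPKM (vertical axes, from 0, each with its own scale) of each of the 10 markers in 5 Ad-GHRKO and 5 Flox libraries, with the replicate number at each point and the mean and SD beside it. The genotypes overlap in all 10 panels, and Flox 4 is the highest library in 6 of them.

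Pdgfra, the platelet-derived growth factor receptor that marks stromal progenitors (ENSMUSG00000029231, chromosome 5, 75152292 to 75198215, plus strand, GRCm38), was at 7.56, 14.04, 16.8, 13.4 and 17.7 FPKM in Ad-GHRKO libraries 1 to 5, against 9.07, 6.84, 10.7, 19.6 and 10.2 FPKM in Flox libraries 1 to 5. All Ad-GHRKO libraries but the first lay above the Flox median, while the single highest value was Flox 4 and the lowest 2 were Flox 2 and Ad-GHRKO 1. The log2 change was 0.31 (SE 0.27, 95% interval -0.29 to 0.90, limma adjusted p = 0.64), and an exact two-sided permutation test of the mean FPKM gave p = 0.37, where 0.0079 is the smallest that 5 against 5 libraries allow.

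Cd34, a surface sialomucin of progenitors that endothelial cells carry too (ENSMUSG00000016494, chromosome 1, 194938819 to 194961279, plus strand), was at 15.5, 20.98, 28.1, 23.2 and 24.3 FPKM in Ad-GHRKO libraries 1 to 5, against 26.8, 12.99, 14.6, 53.8 and 12.9 FPKM in Flox libraries 1 to 5. The Ad-GHRKO values stayed within the Flox range, with Flox 4 far above and Flox 2, 3 and 5 below all of Ad-GHRKO. Its mean was lower in Ad-GHRKO, 22.4 ± 4.68 against 24.2 ± 17.5 FPKM in Flox (SD, n = 5 each), but its log2 change was 0.10 (SE 0.36, limma adjusted p = 0.93). Endothelial markers, 6 genes that include none of the members, summed to 92.7 to 213.7 FPKM in Ad-GHRKO and 89.7 to 185 FPKM in Flox, and their part in the Cd34 level was not tested.

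Ly6a, the gene of the SCA1 antigen (ENSMUSG00000075602, chromosome 15, 74994877 to 74998031, minus strand), was the most abundant of the 10 in both genotypes. It was at 151, 149, 202, 208 and 219.8 FPKM in Ad-GHRKO libraries 1 to 5, against 260.4, 170.2, 151, 409 and 122 FPKM in Flox libraries 1 to 5. Every Ad-GHRKO value fell inside the Flox range. Its log2 change was -0.13 (SE 0.30, 95% interval -0.80 to 0.53, limma adjusted p = 0.87), and it was 0.12 without Flox 4. Ly6a belongs to a family of near copies, and 18.97% of its stretches of 50 bases also occur in transcripts of other genes, Ly6c1 foremost, so its level is uncertain.

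The early markers showed the same arrangement, with Flox 4 highest for all 3. Dpp4, a membrane peptidase that marks septal progenitors (ENSMUSG00000035000, chromosome 2, 62330073 to 62412231, minus strand), was at 6.01, 12.8, 15.6, 12.8 and 12.1 FPKM in Ad-GHRKO libraries 1 to 5, against 10.97, 4.203, 6.05, 23.9 and 4.903 FPKM in Flox libraries 1 to 5. Outside the muscle-rich library Ad-GHRKO 1, the Ad-GHRKO values lay between 12.1 and 15.6 FPKM, above 4 Flox libraries and below Flox 4. On the log2 scale the change was 0.43 (SE 0.40, 95% interval -0.45 to 1.31, limma adjusted p = 0.66). Without Flox 4 it was 0.79, with an interval of 0.15 to 1.44 and an adjusted p of 0.25. Without the 3 muscle-rich libraries it was 0.30 (limma adjusted p = 0.71, 4 Ad-GHRKO and 3 Flox libraries left).

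Pi16, a secreted peptidase inhibitor of the same cells (ENSMUSG00000024011, chromosome 17, 29317680 to 29330593, plus strand), was at 40.9, 45.4, 46.03, 67.1 and 48.4 FPKM in Ad-GHRKO libraries 1 to 5, against 74.7, 30.6, 30.7, 110.6 and 26.2 FPKM in Flox libraries 1 to 5. Flox 1 and Flox 4 stood above all Ad-GHRKO libraries, and the other 3 Flox libraries stood below all of them. The mean was 49.6 ± 10.2 FPKM in Ad-GHRKO and 54.6 ± 37.04 FPKM in Flox (SD, n = 5 each), while the log2 change was 0.08 (SE 0.37, 95% interval -0.72 to 0.89, limma adjusted p = 0.94). It was -0.31 without the 3 muscle-rich libraries.

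Cd55, which encodes decay-accelerating factor, a surface inhibitor of complement (ENSMUSG00000026399, chromosome 1, 130439027 to 130462744, minus strand), was at 11.1, 13.2, 14.5, 14.6 and 11.998 FPKM in Ad-GHRKO libraries 1 to 5, against 11.9, 6.51, 9.18, 14.7 and 11.99 FPKM in Flox libraries 1 to 5. It varied least of the 10 genes in both genotypes, with a coefficient of variation of 11.7% in Ad-GHRKO and 28.6% in Flox. Its log2 change was 0.29 (SE 0.19, 95% interval -0.12 to 0.70, limma adjusted p = 0.50). Its near copy Cd55b was listed at no more than 0.031 FPKM in Ad-GHRKO and 0.067 FPKM in Flox.

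The committed markers had higher means in Ad-GHRKO, without passing the test. Icam1, an adhesion receptor for leukocyte integrins that committed preadipocytes carry (ENSMUSG00000037405, chromosome 9, 21015985 to 21028817, plus strand), was at 5.61, 5.92, 11.9, 9.12 and 9.05 FPKM in Ad-GHRKO libraries 1 to 5, against 7.89, 3.34, 7.09, 5.77 and 3.26 FPKM in Flox libraries 1 to 5. Ad-GHRKO 3, 4 and 5 lay above all Flox libraries, and Ad-GHRKO 1 and 2 lay inside the Flox range. Its log2 change of 0.55 had the smallest p of the 9 tested markers (SE 0.26, 95% interval -0.02 to 1.11, unadjusted p = 0.056, limma adjusted p = 0.32; exact permutation p = 0.11 for the mean FPKM). Gm47079, on the opposite strand, covers 11.7% of the Icam1 exon bases. Icam1 is also expressed by endothelial cells and macrophages. Macrophage markers, 5 genes, summed to 269 to 562 FPKM in Ad-GHRKO and 185 to 565 FPKM in Flox. Flox 2 and the muscle-rich Flox 5, the 2 libraries lowest in Icam1, were also the 2 lowest in these sums at 185 and 193 FPKM. Muscle transcripts lower both values in Flox 5 through the library total. The same holds for Ad-GHRKO 1, which was lowest of the Ad-GHRKO libraries in both, at 5.61 and 269 FPKM. Other libraries differed, since Flox 4 had a sum of 542 FPKM with Icam1 at 5.77 FPKM. Flox 3 had a lower sum of 350 FPKM with Icam1 at 7.09 FPKM. The part of macrophages in the Icam1 level was not tested.

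F3, the gene of tissue factor, the cell-surface starter of coagulation (ENSMUSG00000028128, chromosome 3, 121723537 to 121735048, plus strand), was at 11.2, 21.2, 23.6, 21.1 and 43.2 FPKM in Ad-GHRKO libraries 1 to 5, against 23.7, 15.01, 13.5, 12.9 and 11.3 FPKM in Flox libraries 1 to 5. Ad-GHRKO 5 was the highest and the muscle-rich Ad-GHRKO 1 the lowest of all 10 libraries. The difference on the log2 scale was 0.54 (SE 0.30, 95% interval -0.12 to 1.204, limma adjusted p = 0.41; exact permutation p = 0.17 for the mean FPKM). It was 0.77 without Ad-GHRKO 1 (limma adjusted p = 0.079, the smallest of any marker under any alternative) and 0.31 without Ad-GHRKO 5 (limma adjusted p = 0.70). Ad-GHRKO 5 also held the most Schwann cell transcripts, with 4 markers summing to 379 FPKM, against 8.58 to 67.6 FPKM in the other Ad-GHRKO and 24.9 to 85.5 FPKM in the Flox libraries. The other libraries did not follow this order. Flox 4 had a Schwann cell sum of 85.5 FPKM with F3 at 12.9 FPKM, and Ad-GHRKO 2 had 8.58 FPKM with F3 at 21.2 FPKM. The part of Schwann cells in the F3 level was not tested.

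The 250 bases before the start of the committed markers and of 2 early markers are shown to compare their promoters, from RefSeq (GRCm38.p6), 5′ to 3′ on the gene's strand. Both strands were searched for the STAT motif TTCNNNGAA, bound by the STAT5 factors that growth hormone activates, and for the AP-1 motif TGANTCA, bound by FOS and JUN factors. Matches are in capitals, and no match overlaps another. The windows lie at chr9:21015690-21015939 (plus strand) for Icam1, chr3:121723287-121723536 (plus) for F3, chr2:62412232-62412481 (minus) for Dpp4 and chr1:130462745-130462994 (minus) for Cd55. In the F3 window 116 bases are also exon of Gm43823, on the opposite strand.
Icam1: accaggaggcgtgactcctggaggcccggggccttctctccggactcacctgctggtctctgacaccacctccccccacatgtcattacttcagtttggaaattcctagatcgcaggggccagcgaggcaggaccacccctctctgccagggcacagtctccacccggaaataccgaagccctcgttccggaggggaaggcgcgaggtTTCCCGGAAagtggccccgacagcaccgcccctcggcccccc
F3: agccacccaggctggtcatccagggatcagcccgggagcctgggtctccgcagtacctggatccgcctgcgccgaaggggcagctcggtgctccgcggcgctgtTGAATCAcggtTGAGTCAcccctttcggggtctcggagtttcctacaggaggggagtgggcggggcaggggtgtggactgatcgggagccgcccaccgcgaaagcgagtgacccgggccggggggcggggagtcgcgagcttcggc
Dpp4: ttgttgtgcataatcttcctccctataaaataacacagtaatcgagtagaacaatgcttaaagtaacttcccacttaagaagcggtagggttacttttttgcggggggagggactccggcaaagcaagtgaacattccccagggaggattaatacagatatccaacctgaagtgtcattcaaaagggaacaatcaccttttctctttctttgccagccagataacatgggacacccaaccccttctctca
Cd55: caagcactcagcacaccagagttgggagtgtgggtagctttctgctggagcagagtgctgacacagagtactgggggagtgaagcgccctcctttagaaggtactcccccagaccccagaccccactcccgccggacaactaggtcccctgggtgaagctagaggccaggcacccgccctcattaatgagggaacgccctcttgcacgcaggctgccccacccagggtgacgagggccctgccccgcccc

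Icam1 held 1 STAT match, whose first base lies 42 bases before the start that its window was set by, and F3 held 2 AP-1 matches, at 146 and 135 bases. Of the 9 markers with a promoter in the table, these were the only 2 with a match of either motif in the 250 bases. For Pi16 and Fbn1, however, all 250 bases of the window are annotated exon. These windows lie inside the gene coordinates given here and not before them. The windows of Icam1 and Pdgfra end at 21015939 and 75152250, short of the gene starts given here, 21015985 and 75152292. The bases between were not searched. Among 32851 windows of the same length, 7.02% held the STAT motif and 6.75% the AP-1 motif. The matches describe letters and not bound sites.

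Early and committed markers were then set against each other within each library. The mean log2(FPKM + 1) of Dpp4, Pi16 and Cd55 minus that of Icam1 and F3 was 0.77, 0.75, 0.37, 0.71 and -0.05 in Ad-GHRKO libraries 1 to 5, against 0.62, 0.36, 0.28, 1.86 and 0.82 in Flox libraries 1 to 5. The early mean was thus above the committed mean in all libraries but Ad-GHRKO 5, and the genotypes overlapped. This order did not hold for each gene. Mean F3, at 24.04 FPKM in Ad-GHRKO and 15.3 FPKM in Flox, was above Dpp4 (11.9 and 10.02 FPKM) and Cd55 (13.1 and 10.9 FPKM). Mean Pi16 was above F3, at 49.6 and 54.6 FPKM. The early minus committed difference averaged 0.51 ± 0.35 in Ad-GHRKO and 0.79 ± 0.64 in Flox (SD, n = 5 each). Flox 4, with the highest value, carries most of the gap between these means, because the other 4 Flox libraries averaged 0.52 ± 0.25 (SD, n = 4). The Ad-GHRKO mean minus the Flox mean was -0.28 with all libraries, -0.01 without Flox 4, -0.14 without Ad-GHRKO 5, -0.50 without the 3 muscle-rich libraries and 0.13 without Flox 4 and Ad-GHRKO 5 together. A score over chosen members was not tested.

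**Figure D2:**
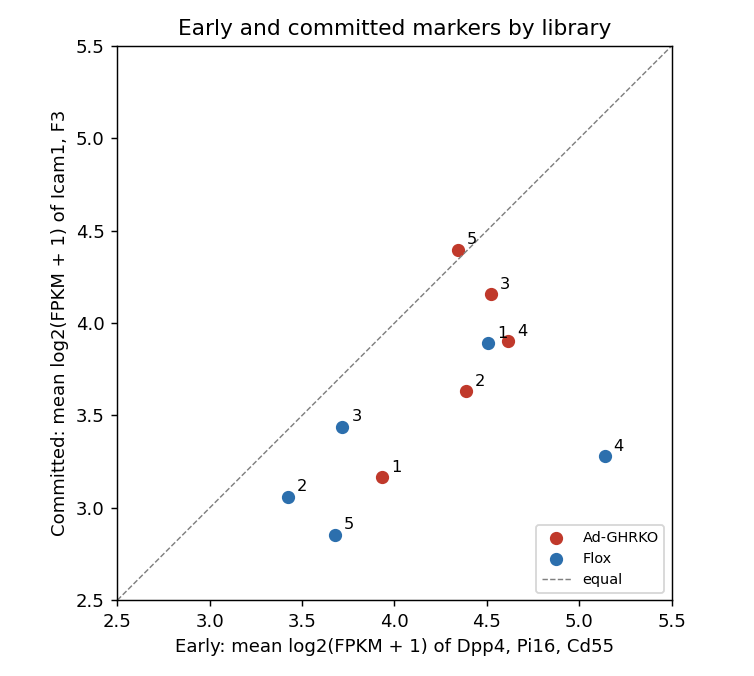
Mean log2(FPKM + 1) of the committed markers Icam1 and F3 (vertical axis) against that of the early markers Dpp4, Pi16 and Cd55 (horizontal axis) in each library, numbered by replicate, with a dashed line where both are equal. Flox 4 lies far to the right at 5.14 on the early axis and 3.28 on the committed axis, and Ad-GHRKO 5 is the only library above the line.

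Fbn1 had the largest log2 change of the 9 tested markers and also the widest interval. It encodes fibrillin-1, the main protein of extracellular microfibrils and the precursor of the hormone asprosin (ENSMUSG00000027204, chromosome 2, 125300594 to 125507993, minus strand). Fbn1 was at 10.8, 44.9, 64.1, 48.9 and 36.5 FPKM in Ad-GHRKO libraries 1 to 5, against 28.5, 10.1, 13.1, 51.3 and 18.3 FPKM in Flox libraries 1 to 5. All Ad-GHRKO libraries but the first stood above 4 of the Flox libraries, with Ad-GHRKO 1 near the bottom and Flox 4 second from the top. The log2 change was 0.77 (SE 0.50, 95% interval -0.33 to 1.86, limma adjusted p = 0.50; exact permutation p = 0.19 for the mean FPKM). It was 1.17 without Ad-GHRKO 1 (limma adjusted p = 0.090) and 1.09 without Flox 4 (0.32). Gm9913 on the opposite strand covers 20.1% of the Fbn1 exon bases and was listed at no more than 0.171 FPKM in Ad-GHRKO and 0.221 FPKM in Flox. Whether counting used strand is not given in the sources used here.

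Dlk1, which encodes the preadipocyte factor PREF1, an inhibitor of adipogenesis that is shed from the surface of preadipocytes (ENSMUSG00000040856, chromosome 12, 109452823 to 109463336, plus strand), was close to the limit of these libraries. It was at 0.0869, 0.101, 0.272, 0.2202 and 0.0968 FPKM in Ad-GHRKO libraries 1 to 5, against 0.156, 0.0297, 0.123, 0.0495 and 0.232 FPKM in Flox libraries 1 to 5. These are 9, 11, 29, 24 and 8 recovered reads in Ad-GHRKO and 14, 3, 13, 5 and 25 reads in Flox. The genotypes overlapped (exact permutation p = 0.49 for the mean FPKM). How large a difference such read numbers could show was not tested. Meg3, a maternally expressed noncoding RNA of the same imprinted locus, was at 0.142 ± 0.053 FPKM in Ad-GHRKO and 0.133 ± 0.045 FPKM in Flox (SD, n = 5 each) and was not tested either. Mirg, also of this locus, was at 0.214 to 0.249 FPKM in Ad-GHRKO and 0.061 to 0.103 FPKM in Flox. It too was below the filter and not tested, and it was named after its values were seen.

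**Figure D3:**
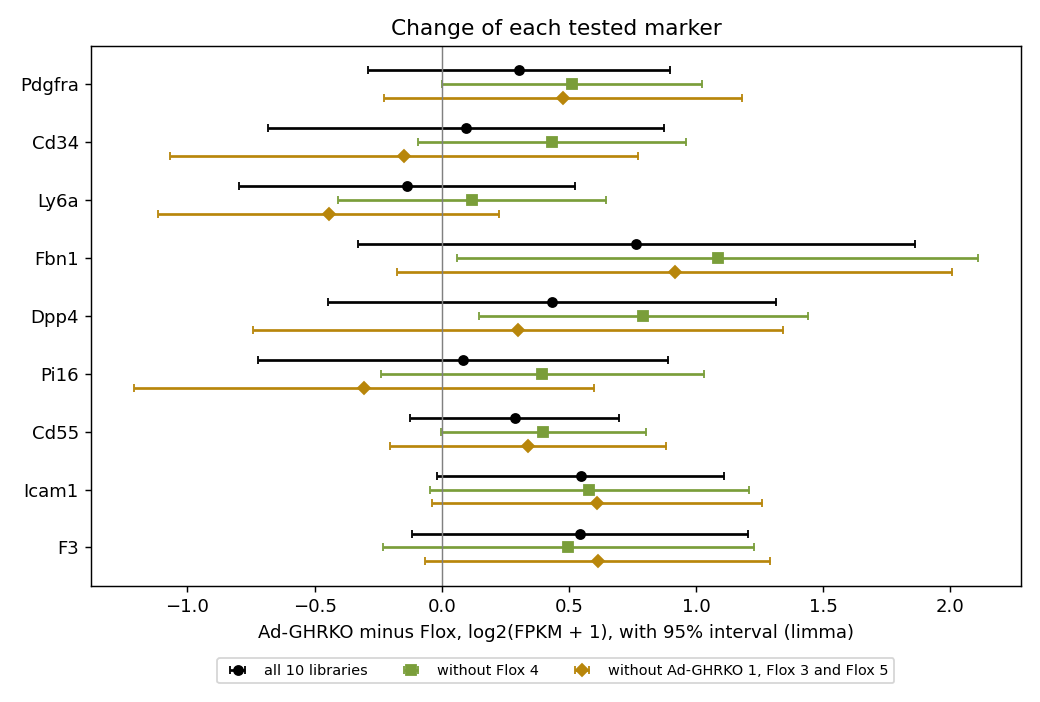
Difference of Ad-GHRKO minus Flox on the log2(FPKM + 1) scale (horizontal axis) for each of the 9 tested markers, as estimated by limma with 95% intervals, from all 10 libraries, without Flox 4, and without Ad-GHRKO 1, Flox 3 and Flox 5, which are rich in muscle transcripts. With all libraries every interval includes 0, and without Flox 4 those of Fbn1 and Dpp4 do not, before adjustment over all genes. In that setting 1799 of 12618 genes had an unadjusted limma p under 0.05.

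The markers fell into the same order of level in both genotypes, apart from F3 and Cd34, which changed places. In Ad-GHRKO the mean level was 186 FPKM for Ly6a, 49.6 FPKM for Pi16, 41.1 FPKM for Fbn1, 24.04 FPKM for F3, 22.4 FPKM for Cd34, 13.9 FPKM for Pdgfra, 13.1 FPKM for Cd55, 11.9 FPKM for Dpp4, 8.32 FPKM for Icam1 and 0.155 FPKM for Dlk1. In Flox the means were 222 FPKM for Ly6a, 54.6 FPKM for Pi16, 24.2 FPKM for Fbn1 and for Cd34, 15.3 FPKM for F3, 11.3 FPKM for Pdgfra, 10.9 FPKM for Cd55, 10.02 FPKM for Dpp4, 5.47 FPKM for Icam1 and 0.118 FPKM for Dlk1. Ly6a at the top and Dlk1 at the bottom had ranges clear of their neighbours in both genotypes, and all other neighbours in the order had overlapping ranges. Within single libraries, Cd34 was above Pdgfra in every library of both genotypes. Dpp4 was above Icam1 in 5 of 5 Ad-GHRKO and 4 of 5 Flox libraries, and Pi16 above Fbn1 in 4 of 5 and 5 of 5.

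Relative to the mean, the spread between libraries was wider in Flox for 9 of the 10 markers by the coefficient of variation, F3 being the exception. By the SD in FPKM it was wider in Ad-GHRKO for Icam1, F3, Dlk1 and Fbn1. Dpp4 had a coefficient of variation of 29.9% in Ad-GHRKO and 82.1% in Flox, Cd34 20.9% and 72.4%, Pi16 20.5% and 67.9%, and Ly6a 17.9% and 52.3%, Ad-GHRKO first in each case. Flox 4 was the highest of the 10 libraries for Pdgfra, Cd34, Ly6a, Dpp4, Pi16 and Cd55, while Flox 2 was lowest for 5 markers and Flox 5 for 4. Without Flox 4 the Flox coefficient was still the larger for 7 of the 10, and that of Dpp4 was 46.8%. The 9 tested markers did not move as 1 block, since in Flox 4 Icam1 was at 5.77 FPKM and F3 at 12.9 FPKM, close to their Flox means of 5.47 and 15.3 FPKM. The difference in spread was not tested.

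**Figure D4:**
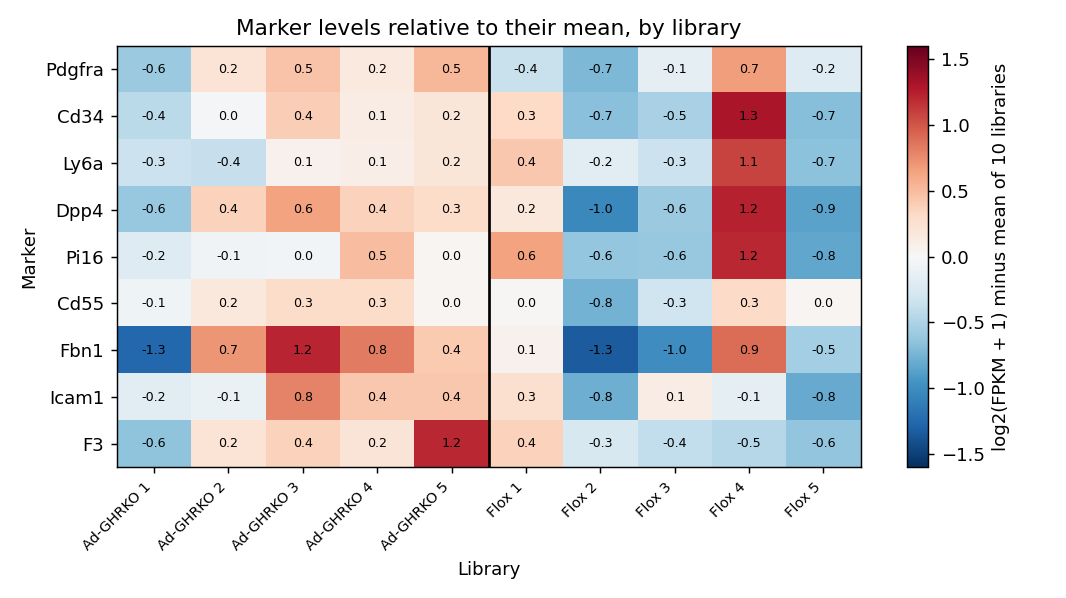
Level of each of the 9 tested markers (rows) in each library (columns, Ad-GHRKO left of the line and Flox right of it), as log2(FPKM + 1) minus the mean of the 10 libraries. Flox 4 is high for Pdgfra, Cd34, Ly6a, Dpp4, Pi16 and Fbn1 and not for Icam1 or F3, and Flox 2 is below the mean for all 9.

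The genes with the pattern of log2(FPKM + 1) over the 10 libraries most like that of each marker were picked by Pearson correlation. For Dpp4 they were Lrrn4cl (Pearson r = 0.98 over 10 libraries) and Emilin2, a matrix glycoprotein (r = 0.98). For Pi16 they were Igfbp6, an IGF-binding protein (r = 0.96), and Il1rl2 (r = 0.94), and for Cd55 Sdk1 (r = 0.94) and Igfbp5 (r = 0.90). Cd34 was most like Nsg1 (r = 0.99) and Timp2, an inhibitor of metalloproteinases (r = 0.97), and Ly6a most like Has2os and the secreted Wnt modulator Sfrp4 (r = 0.96 each). Pdgfra was most like Ubtd2 (r = 0.98) and Adamts14 (r = 0.97), Fbn1 most like Dbn1 and Fstl1 (r = 0.98 each), Icam1 most like P3h2 (r = 0.97), and F3 most like Thoc1 (r = 0.98) and Meox1 (r = 0.97). None of the genes named here passed the test between the genotypes (limma adjusted p of 0.35 or more). The values are descriptions over libraries that share the 3 muscle-rich ones, picked as the highest among 12785 genes.

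Genes that work with the markers, or are related to them, were followed in 12 lists. Of 97 genes, 82 were tested, 1 was higher in Ad-GHRKO and 0 lower by limma at an adjusted p of 0.05 (1.22%, against 2.19% of all genes). That gene was F7, coagulation factor VII, which tissue factor binds to start coagulation (ENSMUSG00000031443, chromosome 8, 13026034 to 13035809, plus strand). F7 was at 2.76, 3.73, 10.9, 2.57 and 9.46 FPKM in Ad-GHRKO libraries 1 to 5, against 0.203, 0.693, 0.404, 1.18 and 0.367 FPKM in Flox libraries 1 to 5. Every Ad-GHRKO library lay above every Flox library (log2 change 1.97, SE 0.35, limma adjusted p = 0.016). Of all genes tested, 4.97% had genotypes that did not overlap, in either direction. F7 passed the filter on low values through the Ad-GHRKO libraries, since all 5 of these reached 1 FPKM and among Flox libraries only Flox 4 did. The call ended with no filter (limma adjusted p = 0.059) and with the replicate block (0.064), and held when any 1 library was left out (up to 0.045). None of the other 5 coagulation partners passed, among them F10, with a log2 change of 0.96 (limma adjusted p = 0.14). Macrophages also express F7, whose marker sums are given with Icam1, and their part in the F7 level was not tested.

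None of 10 other early progenitor genes passed, and 9 had log2 changes above 0 (median 0.47). The smallest p was that of Limch1, at 7.30 ± 1.998 FPKM in Ad-GHRKO and 4.28 ± 1.48 FPKM in Flox (SD, n = 5 each; log2 change 0.66, limma adjusted p = 0.15). In each genotype Limch1 was highest in the muscle-rich libraries. It was at 9.97 FPKM in Ad-GHRKO 1, against 4.89 to 8.58 FPKM in the other Ad-GHRKO libraries. In Flox 3 and Flox 5 it was at 6.16 and 5.61 FPKM, against 3.07 to 3.39 FPKM in the other Flox libraries. The part of muscle in the Limch1 level was not tested. None of 9 other committed preadipocyte genes passed (median -0.09), with Ggt5 at 6.86 ± 2.10 FPKM in Ad-GHRKO and 10.2 ± 1.16 FPKM in Flox (log2 change -0.55, limma adjusted p = 0.16). This list holds Pparg, Fabp4, Cd36 and Lpl, which adipocytes express too. None of 8 other genes of CD142 stromal cells passed (median 0.02), the smallest p being that of the sterol transporter Abcg1 (log2 change 1.11, limma adjusted p = 0.12). None of 14 other pan-stromal genes passed (median 0.16), with the integrin subunit Itgb1 at a log2 change of 0.72 (limma adjusted p = 0.14).

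Around Pdgfra, none of the 4 PDGF ligand genes passed, and all 4 had log2 changes above 0 (median 0.28; Pdgfa 0.36, limma adjusted p = 0.30). Around Fbn1, none of 13 microfibril and elastic fibre genes passed. Ltbp3, a latent TGF-beta binding protein, was at 28.4 ± 4.79 FPKM in Ad-GHRKO and 44.6 ± 6.62 FPKM in Flox (log2 change -0.64, limma adjusted p = 0.060). Its genotypes did not overlap, which was so for 4.97% of all genes tested, while the median of the list was 0.26. The list named adhesion partners of ICAM1 also holds other adhesion molecules, such as Icam2, Vcam1 and Selp. In this list 0 of 6 passed, the smallest p being that of the leukocyte integrin subunit Itgb2 (log2 change 1.004, limma adjusted p = 0.23). The 4 tested Ly6 family neighbours all had log2 changes below 0 (median -0.49) and none passed (Ly6c2 -0.62, limma adjusted p = 0.25). Neither complement regulator tested passed (Cd59a 0.61, limma adjusted p = 0.40), nor any of 5 kin and substrates of DPP4 (Dpp8 0.20, limma adjusted p = 0.57), nor Adam17, the sheddase of PREF1 (0.15, limma adjusted p = 0.77).

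**Figure D5:**
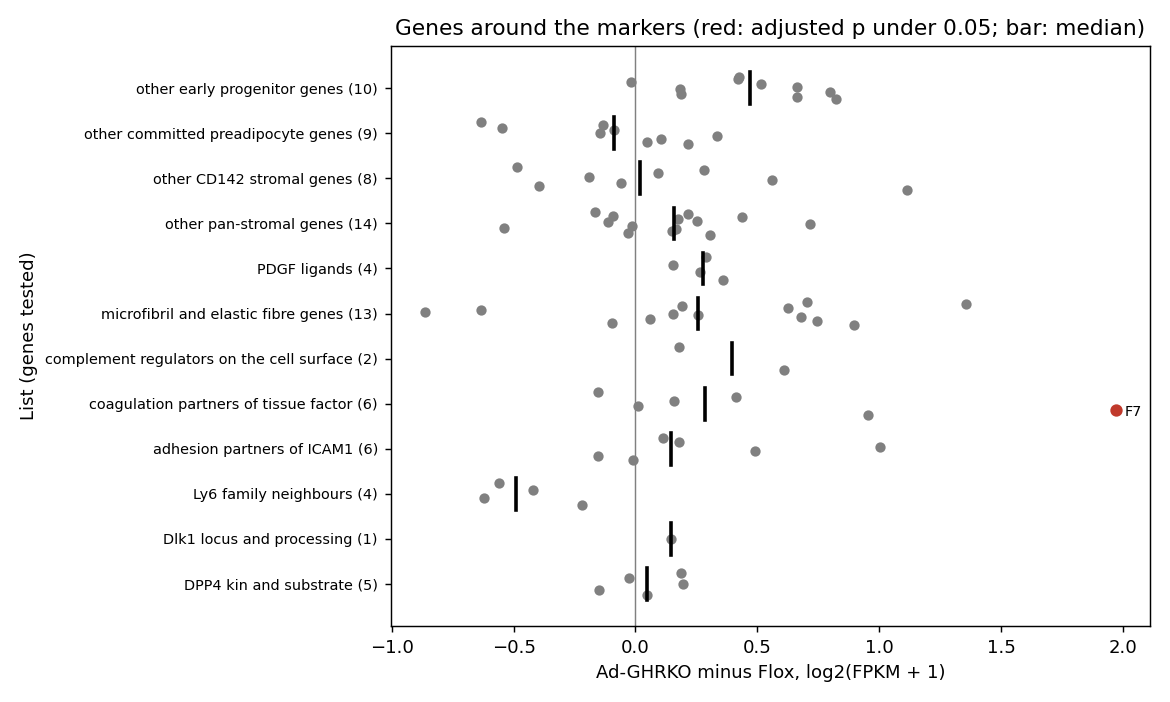
Difference of Ad-GHRKO minus Flox on the log2(FPKM + 1) scale (horizontal axis) for the 82 tested genes in the 12 lists (vertical axis, with the number tested), each point a gene, with the list's median as a bar. F7, in red, is the 1 gene past an adjusted p of 0.05.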

How the data were processed

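The authors deposited 1 table of FPKM values with a column for each of 10 libraries, per the file headers. Libraries were made from polyadenylated RNA with a marked second strand, per the labels' protocols. For alignment, counting and use of strand, the sources used here name no tool or setting. The submitters' processing notes name GRCm39, but 99.54% of 31253 gene identifiers shared with GENCODE M21 had its GRCm38 coordinates, so coordinates are given as GRCm38. FPKM multiplied by M21 exon length gave whole reads, within 0.01, for 99.24% to 99.32% of values above 0 in each library. The recovered depth was 14.6 to 19.2 M.

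The 12785 genes at 1 FPKM or more in 5 libraries or more were tested two-sided on log2(FPKM + 1) in limma 3.58.1 (R 4.3.3), with its trend option, and p-values were adjusted by Benjamini-Hochberg over all of them. This scale understates changes of low genes. Single markers were also compared by exact permutation of the mean FPKM over 252 splits, and 95% intervals come from limma. The method was tested on simulated data in which all genes shared the same spread setting and no library stood apart in muscle transcripts. That does not show how large a difference of these markers could be detected. The members, lists and alternatives were chosen with earlier results of these data known. The lists gave the genes named: those past the threshold, up to 4, or else the 1 with the smallest p, and for each marker the 2 most correlated genes, leaving out predicted genes and pseudogenes. A gene that this rule gave for Icam1 is not reported here. Promoters are from RefSeq, matched by symbol for 9 of 10 markers. Python 3.11.15 read the table and matplotlib 3.10.9 drew the figures. Of 21 alternatives for the genes, limma voom on recovered reads was chosen after seeing the data. So was leaving out Flox 4 and Ad-GHRKO 5 together, which was run for the early minus committed difference alone.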

Additional observations from a re-analysis of the deposited data

Results flagged for a closer look

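Pi16 was at 67.15 FPKM in Ad-GHRKO 4, away from the other Ad-GHRKO libraries, which held 40.9 to 48.4 FPKM. The gap to the nearest of them was 0.715 of the whole range, above the critical value of 0.71 for 5 samples. Of 28 groups of values looked at in this way, this was the 1 that stood out, and chance flags about 1 in 20. Flox 1 and Flox 4 held more, at 74.7 and 110.6 FPKM.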

How the results depend on the processing

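None of the 9 tested markers passed an adjusted p of 0.05 under any of the 21 alternatives, the smallest being 0.079 for F3 without Ad-GHRKO 1. Pdgfra, Dpp4, Cd55, Icam1, F3 and Fbn1 kept their sign in all 21. Without the 3 muscle-rich libraries the log2 change was -0.15 for Cd34 and -0.31 for Pi16. Leaving out 1 library gave -0.061 to 0.43 for Cd34 (below 0 without Flox 2, 3 or 5), -0.11 to 0.40 for Pi16 (below 0 without Ad-GHRKO 4 or Flox 2, 3 or 5) and -0.32 to 0.12 for Ly6a (above 0 without Flox 4). The early minus committed difference, -0.28 in all libraries, moved under each alternative run by less than the Flox SD of 0.64. It was -0.40 to -0.01 with 1 library left out, -0.50 without the muscle-rich libraries and 0.13 without Flox 4 and Ad-GHRKO 5 together, where its sign turned and the move was larger than the Ad-GHRKO SD of 0.35. The number of changed genes was 280, and 117 with no filter, 547 with median ratio scaling, 565 with quantile normalization, 773 with the muscle score as covariate, 774 without the muscle-rich libraries and 434 with limma voom. Leaving out 1 library gave 104 to 1182 genes, with 1182, 185, 104, 144 and 119 without Ad-GHRKO 1 to 5, and 177, 108, 139, 120 and 153 without Flox 1 to 5. The causes were not tested.

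The replicate numbers in the titles were tried as a block, which gave 85 genes and no marker past the threshold. Libraries with the same number did not vary together, with correlations of their deviations from -0.49 to 0.39 over genes, so the numbers are not taken to pair them. With the block the call of F7 was lost (limma adjusted p = 0.064). Dlk1, with 3 to 29 reads per library, entered the limma fit only with no filter, on a pseudocount far above its level.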

Other observations

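Ratios of 2 markers within a library do not depend on how the library was scaled, and none of the 36 ratios among the 9 tested markers parted the genotypes in all libraries. Those given next were picked with their values in view. The ratio of Dpp4 to Cd34, in FPKM, was 0.389, 0.610, 0.556, 0.552 and 0.495 in Ad-GHRKO libraries 1 to 5, against 0.409, 0.324, 0.416, 0.445 and 0.381 in Flox libraries 1 to 5. Ad-GHRKO 2 to 5 lay above all Flox libraries, and the muscle-rich Ad-GHRKO 1 lay within the Flox range. The ratio of Fbn1 to Pi16 was 0.264, 0.9900, 1.39, 0.728 and 0.754 in Ad-GHRKO libraries 1 to 5, against 0.381, 0.331, 0.425, 0.464 and 0.697 in Flox libraries 1 to 5, with Ad-GHRKO 2 to 5 again above all of Flox. Flox 4, which held the most of 6 markers, was within the range of its group on the Fbn1 ratio.

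Among markers of other stromal cells, Cspg4, which encodes the pericyte proteoglycan NG2, fell in Ad-GHRKO, to 3.09 ± 0.452 FPKM, against 6.87 ± 1.30 FPKM in Flox (SD, n = 5 each; log2 change -0.94, SE 0.14, limma adjusted p = 0.0081). It was 1 of 5 genes of the pericyte and smooth muscle list, where 1.42% of all genes were lower, and it was named after its value was seen. Its libraries did not overlap between the genotypes, which was so for 4.97% of all genes tested, in either direction. The other 4 genes did not pass and all had log2 changes above 0, with 0.12 for Rgs5, 0.30 for Myh11 and for Notch3, and 1.34 for Acta2, smooth muscle actin (limma adjusted p = 0.063). The Acta2 libraries did not overlap either, in the opposite direction, at 83.8 to 281 FPKM in Ad-GHRKO and 38.0037 to 82.3 FPKM in Flox.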
